A study of Homo sapiens with 5 samples.

Results

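The comparison described here set SH-SY5Y cells given an siRNA against STAU1 (siSTAU1) beside SH-SY5Y cells given a control siRNA (siControl), which are 2 of the 5 libraries of the series. Both groups were taken from the sample titles, and each held 1 library. The members were the genes whose larger deposited log2 value in the pair was at or above 7.8, a floor that kept 8521 of 26364 gene symbols. SH-SY5Y is an established human neuroblastoma cell line with features of immature sympathetic neurons. Both groups were untreated apart from the siRNA as far as the labels say, in medium with 10% serum and 1% antibiotics. A library of cells given an siRNA against UPF1 (siUPF1) came from the same medium. The libraries named Nondifferentiation and Differentiation both list 50 μM retinoic acid in their media labels. Whether the Nondifferentiation cells received it cannot be told from that label alone, and levels of retinoic acid response genes are given below. Labels and notes used here name neither the siRNA sequences nor their doses and times, nor whether any library pooled several cultures.

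STAU1 binds double-stranded stretches of RNA, many of them in the untranslated end of mRNAs and some of them formed by Alu repeats. In Staufen-mediated decay it recruits the helicase UPF1 to a translated mRNA, which is then degraded, so that a target mRNA is held low while STAU1 is present. In neurons Staufen proteins also travel with mRNAs in RNA granules along microtubules. The study's design text asks which transcripts are higher after depletion of both STAU1 and UPF1 and with differentiation, and the comparison of siSTAU1 with siControl addresses the STAU1 side of that question.

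The kit read the polyadenylated ends of RNA, so each gene gave 1 value on a log2 scale on which a difference of 1 is 2-fold. Where 5 values of a gene or list follow each other, their order is siControl, siSTAU1, siUPF1, Nondifferentiation, Differentiation. Depth was estimated from how far apart the lowest values lie, and came to about 15400000 reads in siControl and 15800000 in siSTAU1, and between 17900000 and 30900000 in the other libraries. A gene at the floor stood for about 176 reads in siControl and 180 in siSTAU1, where the counting standard error (SE) of a log2 difference was 0.153. These SEs are estimates of counting error alone. Culture-to-culture spread could not be measured, because no group had a replicate. No p-value is therefore given for any difference. The labelled cell type was checked against its markers: all 18 noradrenergic neuroblastoma markers had a value above 0 in both libraries and 13 were above the floor, with a median log2 difference of -0.02 among those 13.

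The targeted mRNA was lower in the library labelled for it. STAU1 had a log2 value of 12.87, 11.34, 12.89, 12.86 and 12.86. The siSTAU1 value stood alone below 4 nearly identical values. The log2 difference from siControl was -1.52 (counting SE 0.04), 2.88-fold lower, from about 5911 to about 2102 estimated reads. None of the 50-base stretches in the last 500 bases of STAU1 transcripts occurred in a transcript of another gene. UPF1 mRNA had 10.74 in siControl and 10.64 in siSTAU1, a log2 difference of -0.10 (counting SE 0.06).

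Few other genes differed as much. At a threshold of 2-fold, 18 of the 8521 genes (0.211%) were called, 9 higher in siSTAU1 (0.106%) and 9 lower (0.106%). At 1.5-fold, 203 genes (2.38%) were called, 92 higher (1.08%) and 111 lower (1.30%). The median log2 difference of all measured genes was 0.01, and the middle 95% lay between -0.49 and 0.46. siControl against Nondifferentiation, in neither of which STAU1 was targeted, had more: 68 of 8566 genes past 2-fold (0.794%), 19 higher in siControl (0.222%) and 49 lower (0.572%). siSTAU1 against Nondifferentiation had 78 of 8561 (0.911%), 24 higher in siSTAU1 (0.280%) and 54 lower (0.631%). siUPF1 against siControl, which shares the siControl library, had 47 of 8557 (0.549%), 35 higher (0.409%) and 12 lower (0.140%). The share past 2-fold between siSTAU1 and siControl was thus the lowest of the 4 pairs.

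**Figure D1:**
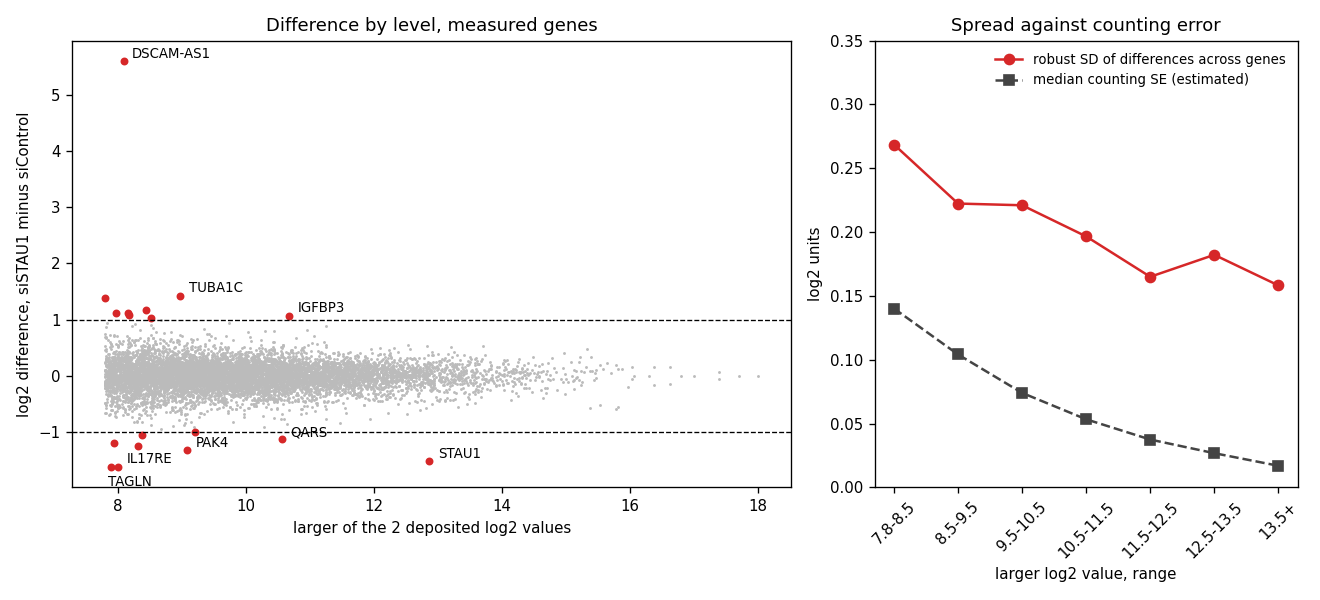
Left, the log2 difference between siSTAU1 and siControl for each measured gene against the larger of its 2 log2 values, with the 18 genes past 2-fold (dashed lines) in red and 8 of them named. Right, the spread of the differences across genes (robust SD, from the median absolute deviation) and the estimated median counting SE in 7 ranges of level. The spread falls from 0.269 to 0.158 while the counting SE falls from 0.140 to 0.017, and STAU1 is the one gene past 2-fold with a larger value above 11.

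The spread of the differences was wider than counting error at every level, and more so, as a ratio, in the highest range than in the lowest. Among the 1440 genes whose larger value was between 7.8 and 8.5, the robust SD across genes was 0.269 and the median counting SE was 0.140. Among the 258 genes of the highest range these were 0.158 and 0.017. The genes past 1.5-fold lay at lower levels than measured genes in general. Of them, 63 of the 92 higher and 58 of the 111 lower genes had a larger value under 9, whereas 5973 of all 8521 were at or above 9. The share past 1.5-fold was 5.42% between 7.8 and 8.5 and 0.388% in the highest range. At or above 11 there were 4 higher and 11 lower genes.

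Among the genes lower in siSTAU1 were regulators of actin. TAGLN, the actin-binding transgelin, had log2 values of 7.90, 6.27, 9.41, 8.13 and 6.47. It was lowest in siSTAU1, with Differentiation close above, and highest in siUPF1. Its difference from siControl was -1.63 (counting SE 0.21) in siSTAU1 and 1.52 in siUPF1. The TAGLN locus lies opposite PCSK7, from which transcripts share 35.9% of its end stretches on the other strand, and no source used here says whether the counting used strand. PAK4, a kinase that acts on the actin cytoskeleton downstream of CDC42, had 9.09, 7.77, 9.24, 9.15 and 7.78, and a difference of -1.32 (counting SE 0.13). Its low values were those of siSTAU1 and Differentiation, and the other 3 libraries agreed within 0.16.

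The receptor and transporter genes on the lower side were IL17RE and SLC16A4. IL17RE, an interleukin 17 receptor subunit, had 8.01, 6.39, 7.15, 7.51 and 7.60, with a difference of -1.62 (counting SE 0.20). The siSTAU1 value was the lowest and the siControl value the highest. IL17RC, the subunit shared by several interleukin 17 receptors and the next measured gene on chromosome 3 in RefSeq order, followed with 10.29 in siControl and 9.37 in siSTAU1, a difference of -0.92 (counting SE 0.08). RPUSD3, 2 measured genes before IL17RE, had -0.50, while JAGN1 between them had -0.12 and EMC3 after IL17RC had 0.06. SLC16A4, from the family of monocarboxylate transporters, had 7.95, 6.74, 7.79, 7.62 and 8.64. The siSTAU1 value was below the other 4, and the difference from siControl was -1.20 (counting SE 0.19).

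QARS, the glutaminyl-tRNA synthetase, was the best measured of the other lower genes. It had 10.57, 9.43, 10.25, 10.11 and 10.32, and a difference of -1.14 (counting SE 0.07). The siSTAU1 value lay 0.68 below the lowest of the other 4. FAM114A1, whose function is poorly known, had 8.37, 7.31, 7.99, 8.33 and 9.45, and its siSTAU1 value was again the lowest, 1.06 below siControl. For 2 genes it was siControl that stood apart from siSTAU1, siUPF1 and Nondifferentiation. TADA2A, which links histone acetyltransferases to activators, had 8.32, 7.07, 7.26, 7.54 and 7.42. PDE4DIP, a centrosomal and Golgi scaffold, had 9.21 in siControl against 8.20 in siSTAU1, 8.22 in siUPF1 and 8.40 in Nondifferentiation, and 9.89 in Differentiation. Of the end stretches of PDE4DIP, 30.8% also occurred in transcripts of other genes, so its count is uncertain.

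On the higher side were a tubulin and a microtubule-binding protein. TUBA1C, an alpha-tubulin, had 7.56, 8.98, 7.64, 6.90 and 6.60. It was highest in siSTAU1 by 1.34 over the next library, and its difference from siControl was 1.43 (counting SE 0.14), 2.69-fold higher. TUBA1C shares 11.9% of its end stretches with transcripts of other genes, TUBA1A above all, and 32.2% with transcripts on the opposite strand, so its count is uncertain. TUBA1A had 16.03 in siControl and 15.97 in siSTAU1, and TUBA1B had 14.95 and 14.84, so neither of these paralogs was past 1.5-fold. DCX, the doublecortin that binds microtubules in migrating neurons, had 7.04, 8.16, 6.51, 7.51 and 9.44. Only Differentiation was above siSTAU1, and the difference from siControl was 1.11 (counting SE 0.17).

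Signalling and polarity genes made up much of the rest. PRICKLE1, a planar cell polarity protein, had 7.49, 8.53, 7.95, 7.67 and 10.14, a difference of 1.03 (counting SE 0.15) from siControl. NRG1, a ligand of ERBB receptors, had 6.87 in siControl and 7.98 in siSTAU1, against 6.46 (siUPF1), 7.92 (Nondifferentiation) and 6.43 (Differentiation). Its siSTAU1 value was thus 0.06 from that of Nondifferentiation, which carried no siRNA by its label. IGFBP3, a secreted binder of insulin-like growth factors, had 9.61, 10.68, 11.02, 7.31 and 8.71. All 3 libraries given an siRNA were above the other 2, and siUPF1 was above siSTAU1.

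RTEL1, AZIN2 and SNORA12 completed the higher genes apart from DSCAM-AS1, which is described with the marker genes. RTEL1 encodes a helicase needed to keep telomeres intact and had 7.27, 8.45, 7.53, 7.46 and 7.24. The other 4 libraries ranged from 7.24 to 7.53, and siSTAU1 was 1.18 above siControl (counting SE 0.16). Of its end stretches 67.8% also occur in other annotated genes, so the RTEL1 count is uncertain. The chief of these, the readthrough gene RTEL1-TNFRSF6B, had 4.70 in siControl and 5.15 in siSTAU1. AZIN2, which encodes an inhibitor of antizyme in polyamine metabolism, had 6.42 in siControl and 7.803 in siSTAU1 but 7.64 in siUPF1 and 7.14 in Nondifferentiation, so siControl was the low library. SNORA12, a small nucleolar RNA gene, had 7.09 in siControl and 8.17 in siSTAU1, against 8.15 in Nondifferentiation. The origin of its reads, from the small RNA or from a host transcript, was not tested.

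**Figure D2:**
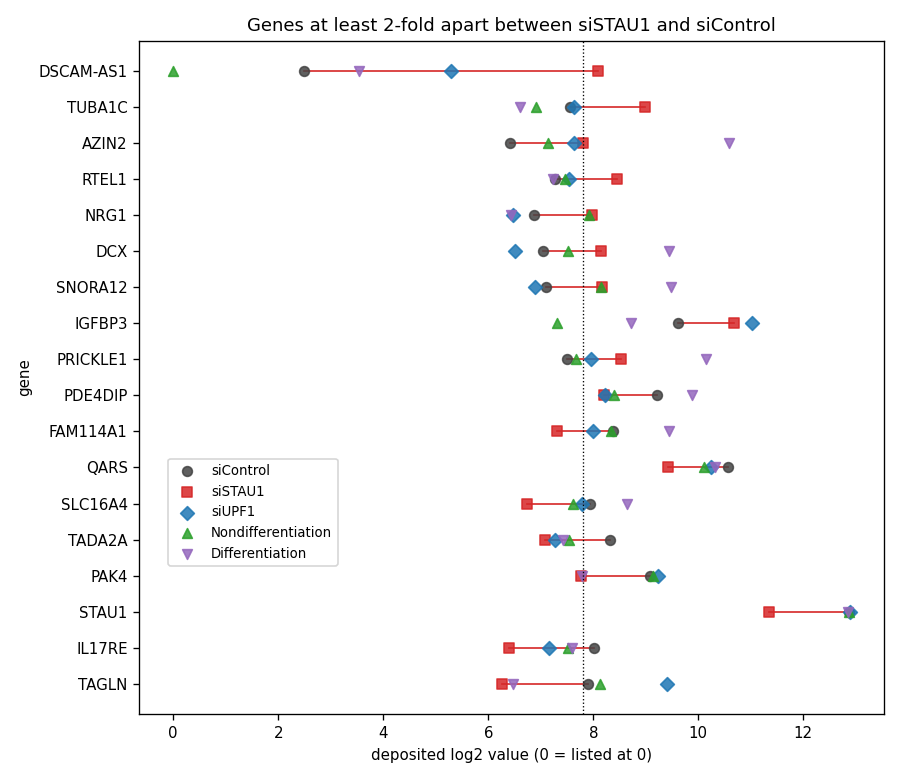
Deposited log2 values of the 18 genes past 2-fold in all 5 libraries, 1 marker per library, with a red line joining siControl to siSTAU1 and the floor of 7.8 dotted. STAU1, PAK4, TUBA1C and RTEL1 have siSTAU1 apart from siControl, siUPF1 and Nondifferentiation, while in PDE4DIP, NRG1 and SNORA12 siSTAU1 lies almost on another of these libraries. The counts of TUBA1C, RTEL1 and PDE4DIP are uncertain.

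The siSTAU1 values were also set against the range of siControl, siUPF1 and Nondifferentiation, with Differentiation left out. It lay at least 1.5-fold above all 3 in 12 genes (0.141%) and at least 1.5-fold below all 3 in 20 genes (0.235%). Of the 18 genes past 2-fold, 11 were among these: TAGLN, IL17RE, STAU1, PAK4, SLC16A4, QARS and FAM114A1 on the lower side, and DCX, RTEL1, TUBA1C and DSCAM-AS1 on the higher side. The 18 were chosen by the siSTAU1 and siControl values that this range reuses, so that number lends them no separate support. No such count was made with another library as the one apart. The lower group also held well-measured genes that were less than 2-fold apart. SEPT2, a septin of the cytoskeleton, had 12.22 in siControl, 11.56 in siSTAU1, 12.24 in siUPF1 and 12.25 in Nondifferentiation, a difference from siControl of -0.66 (counting SE 0.04). SLC50A1, a sugar transporter, had 11.25 in siControl and 10.49 in siSTAU1, below 11.80 in siUPF1 and 11.43 in Nondifferentiation. DEDD2, a death effector domain protein, had 10.44 and 9.69, below 10.84 and 10.42. ISLR2, a membrane protein of developing neurons, had 11.26 and 10.66, below 11.55 and 11.30.

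The higher group of that kind was made of less abundant mRNAs. MYC, the transcription factor, had 7.15 (siControl) and 7.88 (siSTAU1), against 6.38 in siUPF1 and 6.34 in Nondifferentiation, and Differentiation listed it at 0. Its difference from siControl was 0.73 (counting SE 0.17). ABCA12, a lipid transporter, had 7.34 in siControl and 8.27 in siSTAU1, and LUM, the proteoglycan lumican, had 7.68 and 8.35. Both were lower in Nondifferentiation, at 4.87 and 6.40, so the libraries other than siSTAU1 already differed. CACNA2D2, a calcium channel subunit, had 7.40 and 8.02, below 8.25 in Differentiation. BOC, a receptor of the hedgehog pathway, had 7.87 and 8.46. In the 111 genes lower by 1.5-fold, siSTAU1 was the lowest of the 4 libraries other than Differentiation in 83 and siControl was the highest in 82. In the 92 higher genes, siSTAU1 was the highest in 67 and siControl the lowest in 64. Both libraries of the pair thus lay towards the ends of the range, as the choice of genes by their difference favours.

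Just short of 2-fold on the lower side stood genes of varied function. GOLGA4, a Golgi tether, had 11.47 in siControl and 10.63 in siSTAU1, a difference of -0.84 (counting SE 0.05). GDAP1, a mitochondrial outer membrane protein mutated in a neuropathy, had 10.64 and 9.77, and NGLY1, the cytosolic N-glycanase, had 8.87 and 7.98. SARM1, an NAD-cleaving enzyme of axon degeneration, had 8.30 and 7.47, and ATN1, a transcriptional corepressor, had 9.04 and 8.16. For these 5 genes siUPF1 and Nondifferentiation both lay between the pair. MAP1S, a microtubule-associated protein, had 8.68 and 7.73, a difference of -0.95, and PAQR7, a progestin receptor, had 9.19 and 8.27. SARM1 has 43.5% of its end stretches opposite other transcripts, led by SLC46A1. PHOSPHO2, a phosphatase, with -0.84, shares 25.9% of its end stretches with KLHL23, and ZNF596, a zinc finger gene, with -0.87, shares 20.8% with other annotated genes.

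On the higher side just short of 2-fold, ALAS1, the first enzyme of haem synthesis, had 7.68 in siControl and 8.67 in siSTAU1, with 7.84 in siUPF1 and 8.63 in Nondifferentiation. PLAGL1, an imprinted zinc finger gene, had 10.37 and 11.25, a difference of 0.88 (counting SE 0.06), and Nondifferentiation reached 11.03. The axon guidance ligand SLIT2 had 7.34 and 8.22, while Nondifferentiation had 8.24 and Differentiation 11.65. In each of these 3 genes another library came within 0.23 of siSTAU1 or passed it. SLC39A8, a zinc and manganese transporter, and KLHL36, a kelch protein, had differences of 0.85 and 0.84. TSACC, a co-chaperone gene, had 0.95, the antisense RNA ZNF503-AS2 had 0.88 and LOC103021295 had 0.90.

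The other Staufen gene and most double-stranded RNA-binding proteins stayed within 1.5-fold. STAU2, the paralog enriched in neurons, had 11.32, 11.64, 11.39, 11.27 and 11.69. The difference from siControl was 0.31 (counting SE 0.04), and siSTAU1 was above siUPF1 and Nondifferentiation but not above Differentiation. Of 18 genes of the class in the file 15 were measured, and 1 of them, STAU1 itself, was past 1.5-fold, with a median of -0.04 beside 0.01 for all measured genes. EIF2AK2, the kinase PKR that senses double-stranded RNA, had 9.62 and 10.00, a difference of 0.38, but 10.07 in Nondifferentiation. Values within 0.20 either way were found for the editing enzyme ADAR (-0.13), the splicing factor SON (-0.19), the helicase DHX9 (-0.10) and the microRNA factors TARBP2 (-0.17), DICER1 (-0.11), DROSHA (-0.04) and DGCR8 (0.00). So were those of STRBP (-0.11), ZFR (-0.04), ILF2 (0.01) and PRKRA (0.10). ADARB1, ADARB2 and CDKN2AIP were below the floor.

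Among the factors that carry out nonsense-mediated decay, the UPF adaptors were on the lower side. UPF2, which bridges UPF1 to the exon junction, had 9.72, 9.05, 9.54, 9.16 and 9.25, a difference of -0.66 (counting SE 0.09). UPF3B, which links UPF2 to the exon junction complex, had 10.88, 10.28, 10.94, 10.29 and 10.17, and UPF3A, its paralog, had 10.16, 9.63, 9.94, 9.67 and 9.58. The siSTAU1 value differed from that of Nondifferentiation by -0.10 for UPF2, -0.01 for UPF3B and -0.04 for UPF3A, and it was siControl, joined by siUPF1, that stood above. Of 20 measured UPF, SMG and exon junction genes, 2 were lower by 1.5-fold and 0 higher, and the median was -0.10. SMG9 (-0.48) and SMG5 (-0.33) were the next lowest, and NBAS (0.31) and EIF4A3 (0.29), the anchor of the exon junction complex, were the highest. Of 22 measured genes of decapping, deadenylation and decay from the 5' end, 1 was higher by 1.5-fold, the deadenylase PAN2 at 7.21 and 7.84, and the median was 0.05. XRN2, the nuclear exonuclease, was the lowest at -0.35.

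Of 9 mRNAs reported as targets of Staufen-mediated decay that the file lists, 5 were measured, and 0 of these passed 1.5-fold. As 2.38% of all measured genes did, 0 of 5 does not tell whether such targets respond. ARF1, a small GTPase of the Golgi and the first target described, had 13.48, 13.60, 13.79, 13.78 and 14.05. The siSTAU1 value was 0.12 above siControl (counting SE 0.02) and 0.18 below Nondifferentiation. GAP43, a growth cone protein, had 8.51, 8.74, 8.64, 8.21 and 8.72, with siSTAU1 and Differentiation almost level at the top. JUN, the immediate early transcription factor, had 9.13, 9.24, 9.55, 9.62 and 9.93, so siControl was the lowest library and siSTAU1 the next. CYR61, a secreted matricellular protein, had 8.29, 8.11, 8.54, 8.55 and 8.05, and SOWAHC, an ankyrin repeat protein, had 7.85, 7.91, 7.63, 7.94 and 7.84. The differences from siControl ran from -0.18 for CYR61 to 0.23 for GAP43, with a median of 0.11 beside 0.01 for all measured genes. That median turned to -0.18 with Nondifferentiation as the reference and to -0.085 with the mean of siControl, siUPF1 and Nondifferentiation. Below the floor, KLF2, a transcription factor of endothelial and fat cells, had 3.26 in siControl and 4.05 in siSTAU1, from about 7.59 and 13.4 estimated reads. IL7R and PAX3 were listed at 0 in all 5 libraries.

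**Figure D3:**
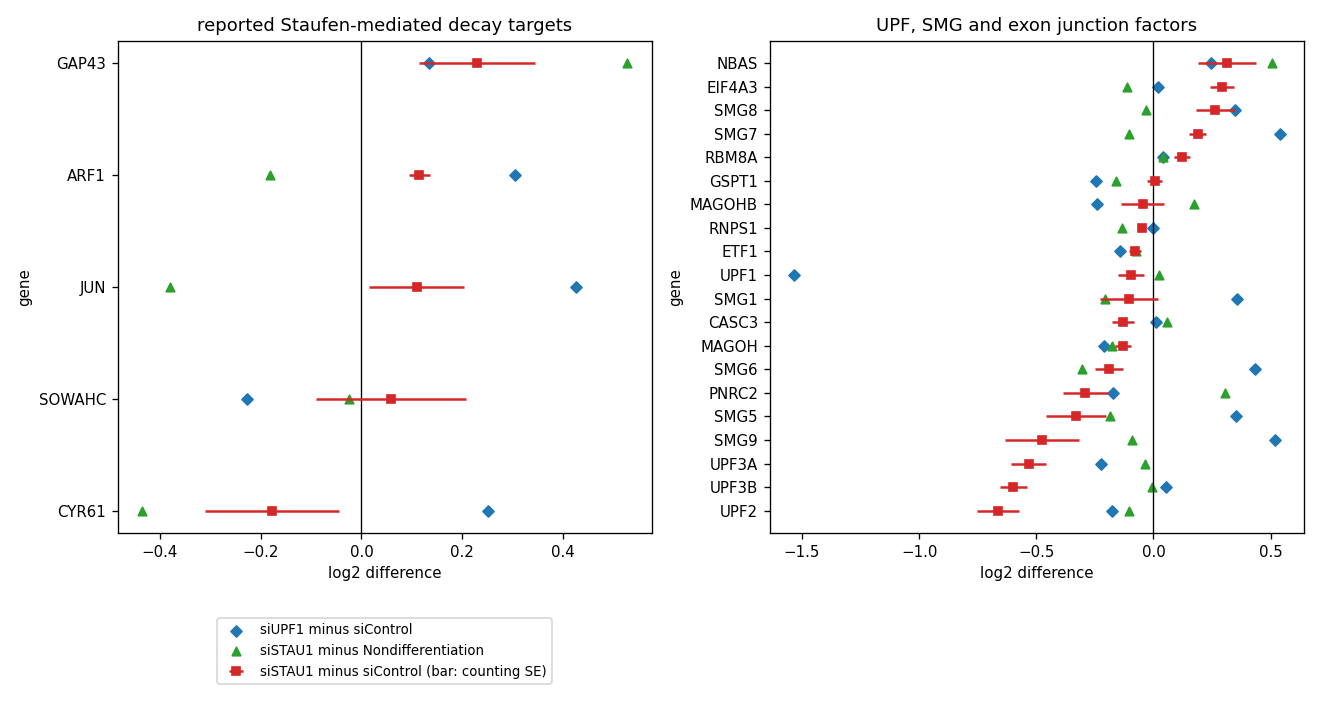
Log2 differences of the 5 measured Staufen-mediated decay targets (left) and of 20 measured UPF, SMG and exon junction genes (right), for siSTAU1 against siControl with its counting SE, siUPF1 against siControl and siSTAU1 against Nondifferentiation. The first pair share siControl and the first and last share siSTAU1. ARF1, JUN and SOWAHC change side with the reference, and UPF2, UPF3A and UPF3B lie near 0 against Nondifferentiation.

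Of 23 measured targets of nonsense-mediated decay 0 passed 1.5-fold. As 2.38% of all measured genes did, a count of 0 in a list of this size says little, here and below. Of the 23, 15 were above 0, where 4324 of all 8521 measured genes were, and the median was 0.06 beside 0.01 for all. The noncoding host gene SNHG15 was the highest at 0.56, followed by the cell cycle inhibitor CDKN1A at 0.47 and the splicing regulator PTBP2 at 0.37, and the lowest were the asparagine synthetase ASNS at -0.41, SNHG12 at -0.34 and the stress regulator ATF4 at -0.33. Proteins of neuronal RNA granules, the particles in which Staufen is found, also had 0 of 23 measured genes past 1.5-fold and a median of 0.02. YBX1, a cold shock domain protein, had 0.23, and the RNA helicase DDX1 had -0.40. The 7 measured Argonaute and TNRC6 pathway genes, through which siRNAs act, ranged from -0.36 for AGO1 to 0.12. Of 24 interferon and RNA sensing genes 3 were measured, and 0 passed 1.5-fold. The other 21 lay below the floor, so the list as a whole cannot be judged. Below it members went both ways: IFI6 had 7.21 in siControl and 5.89 in siSTAU1, and ISG15 had 4.82 and 5.34. Genes of mitosis had a median of 0.00 over 24 members and genes of S phase 0.00 over 22, with 0 past 1.5-fold in either. The retinoic acid response list had a median of 0.02 over 8 members, also with 0 past 1.5-fold. Its 17 genes in the file summed to 29711, 26053, 26840, 27583 and 242183 linear units, so Differentiation alone stood high.

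Most families of the called genes held few other genes past 1.5-fold. Small lists would also do so at the 2.38% share of all measured genes. Of 12 measured tubulins TUBA1C alone passed 1.5-fold, and the next was TUBB4A, a beta-tubulin of the nervous system, at 0.51. Among 17 microtubule-associated proteins DCX and MAP7, which recruits kinesin, were higher, MAP7 by 0.78, and MAP1S was lower. MAP1B (-0.42) and STMN3 (-0.40) were the next lowest and MAPRE1 (0.16) the next highest. TAGLN was the only 1 of 15 contractile actin genes past 1.5-fold. Of the 15, 11 were negative, where 4168 of all 8521 measured genes were, and the median was -0.20 beside 0.01 for all. Against Nondifferentiation the median was -0.11. The list holds TAGLN, a gene already called, so nothing can be read from that share. Calponin CNN1 had -0.37 and tropomyosin TPM1 -0.32, while the neuronal transgelin TAGLN3 had 0.35. ACTA2, smooth muscle actin, lay just under the floor with 7.79 in siControl and 7.06 in siSTAU1.

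Of the kinases related to PAK4, PAK1 had -0.23 and PAK3 had 0.44. QARS was the 1 of 23 aminoacyl-tRNA synthetase genes past 1.5-fold, with the rest between -0.28 for GARS and 0.51 for VARS. In the SAGA and ATAC complexes TADA2A was lower and TAF12, a histone-fold subunit shared with TFIID, higher by 0.79, with the other 19 of 21 within 1.5-fold. Beside IGFBP3, IGFBP5 had 0.47 and the growth factor IGF2 had -0.67, and the other 6 of 9 genes of that family lay between -0.10 and 0.15. IGF2 had 11.57, 10.90, 10.77, 13.92 and 8.95, so siUPF1 was below siSTAU1 and Nondifferentiation was far above both. VANGL1, a membrane partner of PRICKLE1 in planar polarity, had -0.59, while VANGL2 had -0.22. ALAS1 was the only 1 of 8 haem genes past 1.5-fold and RTEL1 the only 1 of 11 helicases. Synapse and secretory granule genes had 0 of 9 past 1.5-fold and a median of -0.22, with VGF and SYT1 both at -0.35 and NPY at 0.47. Over all 25 lists 23 of 329 measured genes (6.99%) passed 1.5-fold, against 2.38% of all genes, but many lists were drawn up around genes already known to differ, so nothing can be read from that excess.

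**Figure D4:**
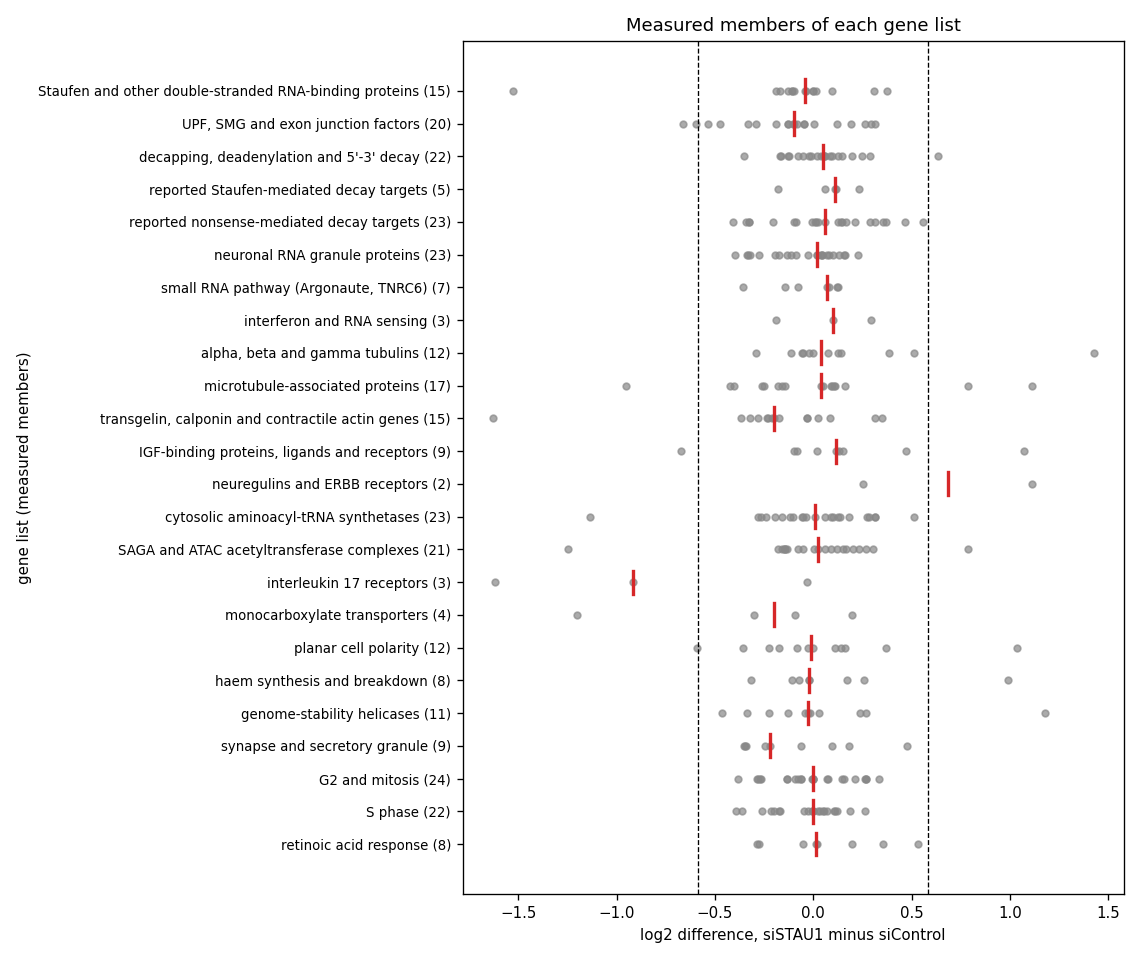
Log2 differences between siSTAU1 and siControl for the measured members of 24 gene lists (grey points), their median (red bar) and the 1.5-fold thresholds (dashed). Most lists centre near 0 with at most 1 or a pair of members past a threshold, and the list of Staufen-mediated decay targets lies within both lines.

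Some epithelial and breast markers stood out in siSTAU1, DSCAM-AS1 above the floor and others below it. DSCAM-AS1, a long noncoding RNA of oestrogen receptor-positive breast cells, had 2.49 in siControl, 8.09 in siSTAU1, 5.29 in siUPF1 and 3.54 in Differentiation, while Nondifferentiation listed it at 0. It was the 1 epithelial or breast marker among the genes past 2-fold, at 5.61 (counting SE 0.69), from about 4.43 to about 221 estimated reads. The end stretches of DSCAM-AS1 occurred in no other transcript on either strand. Of the 15 epithelial markers listed, 7 were listed at 0 in siControl and 0 in siSTAU1, and their median log2 value was 0.26 and 5.21. Their summed linear level was 1193, 1707, 933, 1155 and 2629, and most of it came from CLDN7 and MUC1, which these cells express in every library. For the 20 breast markers, 10 were listed at 0 in siControl and 2 in siSTAU1, with AGR3 and PRLR at 0 in both.

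The keratins and junction genes behind those medians were as follows. KRT8 and KRT18, the keratin pair of simple epithelia, had 7.53 and 7.56 in siSTAU1 and 2.49 each in siControl, and 4.23 and 4.74 in siUPF1. Of their end stretches, 18.95% and 20.65% also occur in other annotated genes, so these counts are uncertain. CDH1, the epithelial cadherin, had 5.21 in siSTAU1 and the splicing factor ESRP1 had 5.25, and both were at 0 in siControl, siUPF1 and Nondifferentiation. EPCAM, a defining epithelial marker, had 2.49 in siControl and 2.26 in siSTAU1. The 11 epithelial markers under 3 in siControl summed to 18.0, 484, 50.4, 13.6 and 67.8 linear units. The 12 such breast markers summed to 9.80, 413, 91.6, 25.4 and 43.6. Both sums were highest in siSTAU1, and siUPF1 and Differentiation were above siControl. DSCAM-AS1, already called and at 8.09 in siSTAU1, is among the 12 and gave most of the breast sum there. KRT8 and KRT18, whose counts are uncertain, gave most of the epithelial sum in siSTAU1. Neither sum therefore stands for many markers rising alike, and the breast sum lends DSCAM-AS1 no separate support. Choosing markers that were low in siControl favours a higher value elsewhere, and the size of that effect was not tested. The 11 hepatocyte markers chosen in the same way summed to 2.8 in siControl and 6 in siSTAU1. All 13 hepatocyte markers summed to 94.6, 140.6, 537.2, 70.4 and 9.2, so marker sums also varied among the other libraries.

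In the other marker lists the number at 0 differed by at most 1 between the pair. The 10 glial and Schwann markers had 3 at 0 in each of the pair, among them SOX10 and GFAP, and the 14 mesenchymal markers had 2 at 0 in each, with LUM the 1 of 6 measured past 1.5-fold. The blood marker PTPRC was at 0 in both libraries, although the globin HBB had 5.92 in siControl and 7.76 in siSTAU1. In bulk RNA more or fewer cells of a type and more or less RNA per cell cannot be told apart. Whether RNA or reads of another sample are in the siSTAU1 library was not tested, so the DSCAM-AS1 difference of 5.61 may not be one of SH-SY5Y cells. The part of these marker levels in the differences of other genes was not tested either.

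**Figure D5:**
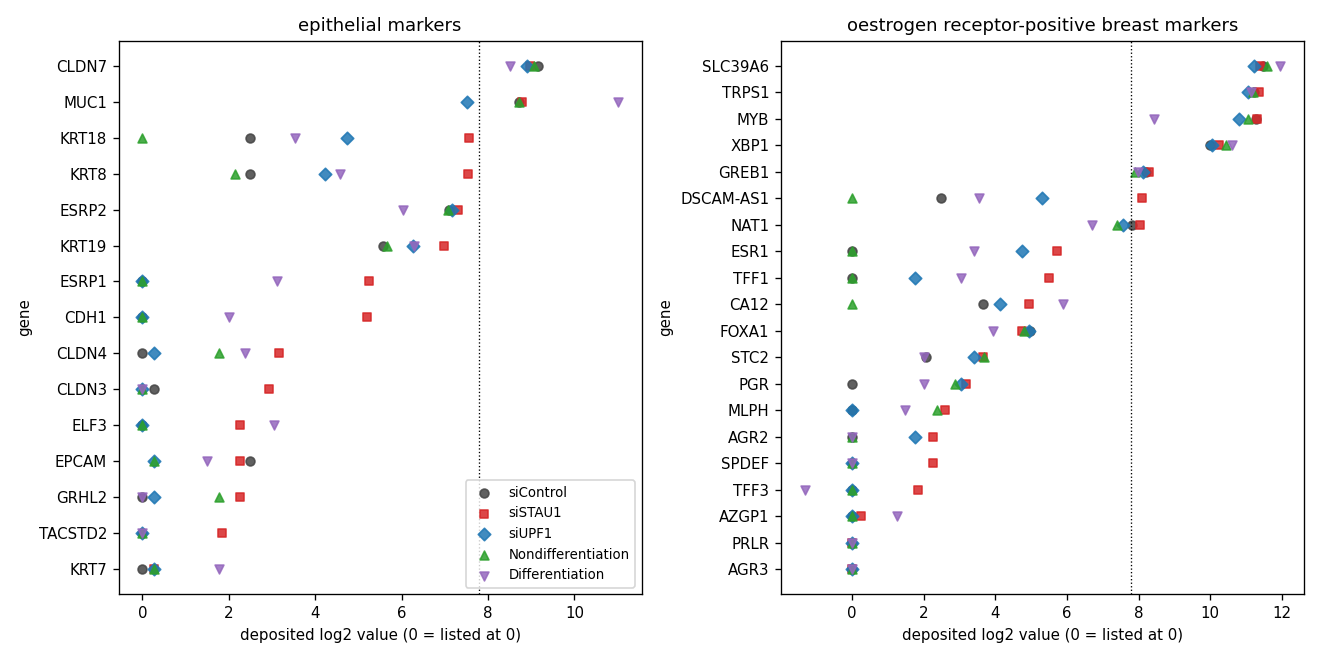
Deposited log2 values of 15 epithelial (left) and 20 oestrogen receptor-positive breast markers (right) in the 5 libraries, with the floor of 7.8 dotted. siSTAU1 lies to the right of siControl for KRT8, KRT18, ESRP1, CDH1, ESR1, TFF1 and DSCAM-AS1, while CLDN7, SLC39A6, TRPS1 and MYB nearly coincide.

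Other genes went from 0 to a value, or back, between the pair. Of 9932 genes listed at 0 in siControl, 10 had a value of 5 or above in siSTAU1, and 4 went the other way. The highest of the first kind were ESR1 (5.71), the oestrogen receptor, TFF1 (5.505), a trefoil peptide induced by it, RAB26 (5.505), a GTPase of secretory granules, TPD52L1 (5.38) and the kinase TNIK (5.34). RAB26 and TNIK were above 0 in the other 3 libraries, so siControl was the exception, whereas TPD52L1 was at 0 in all 3. Those listed at 0 in siSTAU1 were led by DLG2 (5.45), a postsynaptic scaffold, FGF1 (5.19), a growth factor, ACSL5 (5.15), an acyl-CoA synthetase, TMEM254-AS1 (5.04) and the growth hormone receptor GHR (4.88). FGF1 had 7.58 in siUPF1, 5.86 in Nondifferentiation and 10.03 in Differentiation, which makes siSTAU1 the low library. These values stand for about 23 to 42 estimated reads in the library where the gene was seen.

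The genes nearest to the thresholds were as follows. Just above the floor among genes past 1.5-fold were ZBTB7B, with 7.11 in siControl and 7.803 in siSTAU1, and GPRASP1, with 7.803 and 7.15. Just below it were ACTA2 and ARHGAP39, the latter with 7.79 and 7.15. Nearest to 2-fold were PDE4DIP at -1.003 and PRICKLE1 at 1.03 on the inside, and ALAS1 at 0.99 and MAP1S at -0.95 on the outside.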

How the data were processed

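The deposited values were log2 values, 1 per gene symbol in each of 5 files. Per the labels' protocols, 500 ng of total RNA extracted with Trizol entered a Lexogen QuantSeq kit. The submitters' processing notes name Bowtie2, edgeR and hg19 but give no role for them. For the counting tool, gene models and use of strand: not given in the sources used here. All 5 deposited columns share the highest log2 value, 18.01, and 100% of values above 0, made linear, fell on multiples of 1/5 to within 0.001, the pattern of quantile normalization over 5 libraries. Such scaling removes differences in total RNA.

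Reads were estimated by dividing linear values by the spacing of the 50 lowest distinct values (1.26 units per read in siControl, 1.24 in siSTAU1). Differences were taken between log2 values without a pseudocount. Genes past 2-fold, the 10 highest and 10 lowest of the next tier, list extremes and markers were named, apart from some genes that are not reported here. IGF2, RPUSD3, JAGN1, EMC3 and the genes set against 3 libraries were chosen after their values were seen. The members and lists were chosen with earlier results of these data known. Sharing of 50-base stretches was searched in GENCODE 29 transcripts, a newer build. Of 8521 genes 8491 matched a RefSeq symbol. The steps were tested on simulated data that held counting error alone. The differences between these libraries had a wider spread at every level, so that test does not show which calls here are right. Python 3.11.15, numpy 2.4.6, pandas 2.3.3 and matplotlib 3.10.9 were used. Alternatives changed the reference, floor, threshold, pseudocount and centring.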

Additional observations from a re-analysis of the deposited data

Results flagged for a closer look

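Below the floor used for the comparison, 4 marker genes listed at 0 in siControl reached at least 10 estimated reads in siSTAU1. ESR1 had a log2 value of 5.71, TFF1 5.505, ESRP1 5.25 and CDH1 5.21. ESR1 and TFF1 were above 0 in siUPF1 and Differentiation as well, while ESRP1 and CDH1 were above 0 in Differentiation and at 0 in siUPF1.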

How the results depend on the processing

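No paired analysis was possible because each group held 1 library, and no replicate could be left out. The STAU1 difference lay between -1.53 and -1.52 under the 4 alternatives tried for it. With Nondifferentiation as the reference, 24 genes were 2-fold higher and 54 lower, the median of the Staufen-mediated decay targets was -0.18, and 8 of the 18 genes were past 2-fold. With the mean of siControl, siUPF1 and Nondifferentiation as the reference that median was -0.085, and 10 of the 18 genes were past 2-fold. Without a floor 1353 genes were higher and 1298 lower. A floor of 9 gave 1 and 4, and a floor of 10 gave 1 and 2. A 1.5-fold threshold gave 92 and 111, and a 3-fold threshold 1 and 2. With 16 linear units added 14 of the 18 genes stayed past 2-fold. Neither that step nor centring could have changed the sign of differences of this size. Under the other references 0 of the 18 changed sign, but these reuse the siSTAU1 library by which the genes were chosen. Against Nondifferentiation SNORA12 fell to 0.02 and NRG1 to 0.06.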

Other observations

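By chromosome, the median log2 difference between siSTAU1 and siControl over measured genes lay between -0.022 on chromosome 21, with 87 genes, and 0.028 on chromosome 22, with 188 genes.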
